A study of Mus musculus with 6 samples.

Results

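The mitochondrial ribosomal protein genes were examined in wild-type (WT) and Kansl1 knockout (KO) primary mouse embryonic fibroblasts (MEFs), as a set of 77 genes of the 26898 in the table. Members were taken by symbol, Mrpl or Mrps followed by a number and at most 1 letter, with a mean of at least 1 TPM (a gene's share of all reads once each read count has been divided by the exon length, set to a common total). All 77 genes with such a symbol passed this level, with means over the 6 samples from 2.64 TPM for Mrpl33 to 81.3 TPM for Mrpl52, so no gene lay just outside it, and none passed through a single group. Mrpl53, which encodes a further large-subunit protein, was not analysed here. Of the 77, 26 encode proteins of the small subunit and 50 of the large subunit, while Mrps36 is no longer counted as a ribosomal subunit.

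KANSL1 is a subunit of the NSL complex, a chromatin regulator, and the comparison asks how its loss alters transcript levels. The 3 WT samples (4, 5 and 8) carried Kansl1 fl/fl alleles, and the 3 KO samples (3, 7 and 10) carried Kansl1 fl/fl alleles with CAG-cre, a recombinase under a broadly active promoter that tamoxifen switches on. The strain was C57BL/6, and cells of both groups were kept in tamoxifen at 1 μM for 48 h, so tamoxifen is shared while Cre is not: loss of Kansl1 and presence of Cre cannot be told apart here. The labels give passage 3 and 10% serum for every sample, while the study's general methods for MEFs give a higher share of serum. The study's methods give 3 embryo donors a group, and p-values measure the spread between these samples.

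Mitochondria carry their own ribosome, which makes a small set of membrane proteins of the respiratory chain and ATP synthase from mRNAs encoded in mitochondrial DNA. Its rRNAs are transcribed inside the organelle, whereas each of its proteins is encoded in the nucleus, made in the cytosol and imported. Many of the proteins belong to families shared with bacterial ribosomes, and others were added in the mitochondrial lineage, where they cover the surface of the subunits and anchor the ribosome to the inner membrane. Fibroblasts, like other nucleated cells, express the set as housekeeping genes.

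Reads recovered from the TPM steps amounted to between 17655495 and 27718259 assigned reads a sample, lowest in KO 3 and highest in KO 7. Kansl1 itself stood at 28.5, 26.7 and 24.4 TPM in WT and at 13.7, 15.8 and 14.4 TPM in KO, with no overlap, which is 55.1% of the WT mean and a log2 fold change of -0.82 (SE 0.11, limma adjusted p = 0.000859). Values over all exons of Kansl1 do not show how many alleles were recombined. Fibroblast markers summed to 10280 to 14860 TPM in WT and to 11010 to 14440 TPM in KO (10 markers, groups overlapping). Macrophage markers summed to 33.6 to 37.9 TPM in WT and to 69.6 to 140.0 TPM in KO, where Lyz2, 1 of 8 markers, was called higher. The 4 epithelial markers summed to 40.4 to 45.7 TPM in WT and 49.2 to 66.3 TPM in KO, and the 4 endothelial markers to 1.10 to 1.87 TPM in WT and 2.31 to 3.10 TPM in KO. For these 3 lists each KO sum was above each WT sum. The sums of the 3 muscle markers, the 2 neuronal markers and the 1 erythroid marker in the table stayed under 1 TPM in each sample. The part of the macrophage, epithelial and endothelial markers in the results below was not tested, and in bulk samples fewer cells of a type and less RNA per cell cannot be told apart.

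More of the mitochondrial ribosomal protein genes than of all tested genes were called lower in KO MEFs. Of the 77 genes, 28 were called lower (36.4%), where 9.03% of all 14799 tested genes were, and 0 were called higher, where 1.64% of all tested genes were. Calls were made with limma on log2(TPM + 1), at an adjusted p under 0.005 and a log2 fold change beyond 0.5 in either direction, the thresholds of the study. At an unadjusted p under 0.05, 2 of the 77 were higher (2.6%, against 12.2% of all tested genes). With voom on the recovered reads 40 were called lower (against 14.5%) and 0 higher (against 2.93%), and with voom scaled by median of ratios 34 lower (against 12.2%) and 1 higher (against 4.34%). At an adjusted p under 0.05 with no minimum change, limma placed 50 genes lower (64.9%, against 20.7% of all tested genes) and 2 higher (2.6%, against 7.14%). The 3 KO samples lay below the 3 WT samples in 57 genes (74.0%, against 29.9% of all tested genes) and above them in 2 (2.6%, against 13.3%), and in 18 genes the groups overlapped. The median log2 fold change was -0.54 over the 77 genes and -0.07 over all tested genes. Among the 11888 tested protein-coding genes alone, 10.9% were called lower, 34.5% had the KO samples below the WT samples, and the median was -0.11. All 28 genes called lower were among the 57 with no overlap. The count fell in each of the 6 fits that left out 1 sample, and so did the share of all genes called lower. It was lowest without KO 3 (17), WT 5 (18) and KO 10 (18), where 4.39%, 4.16% and 5.31% of all genes tested were called lower. Of the 28, 14 were called in each of these 6 fits. With no filter on low values, which raises the number of genes tested, 1.06% of all genes were called lower. Of the 28 members, 13 remained called there, and Mrps5, Mrps18c, Mrps22 and Mrpl45, described below, did not.

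**Figure D1:**
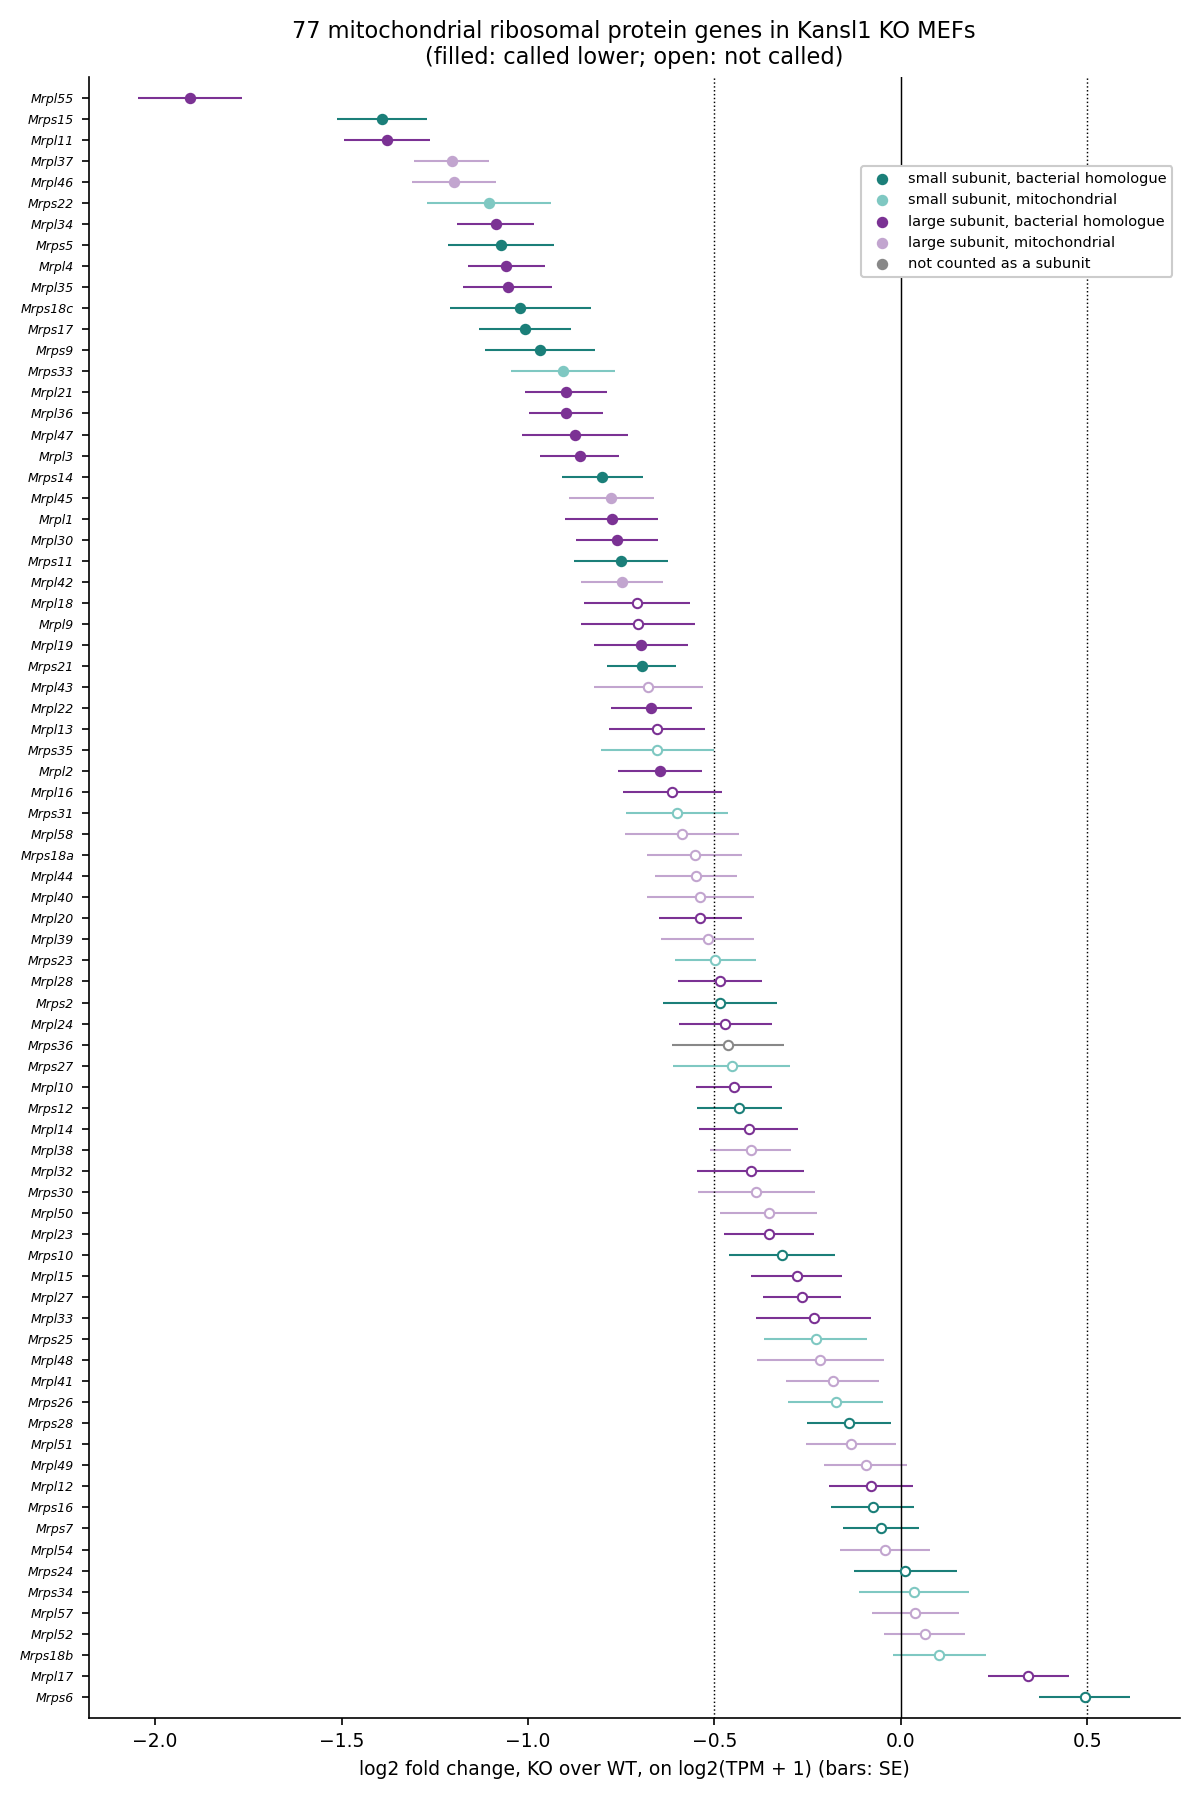
Log2 fold change of KO over WT (horizontal axis, on log2(TPM + 1), bars SE, n = 3 a group) for the 77 genes, ordered from the largest fall at the top and coloured by subunit and family, with filled points for the 28 genes called lower and dotted lines at the thresholds of 0.5. The points run from -1.91 for Mrpl55 to 0.49 for Mrps6, and 70 of 77 lie left of 0.

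**Figure D2:**
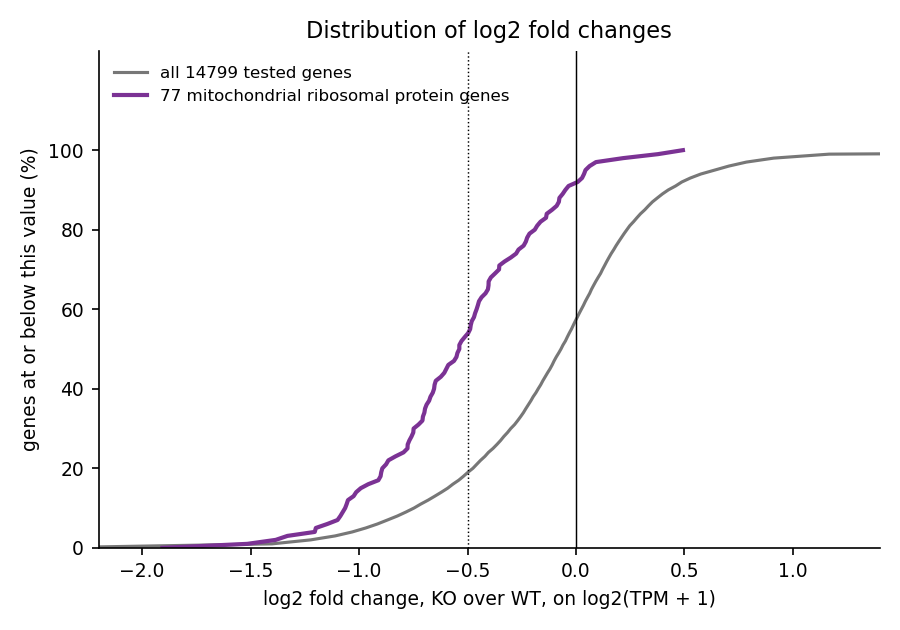
Cumulative share of genes (vertical axis, %) at or below each log2 fold change of KO over WT (horizontal axis, on log2(TPM + 1)) for the 77 mitochondrial ribosomal protein genes and for all 14799 tested genes. The curve of the 77 genes lies to the left, with a median of -0.54 against -0.07; the axis leaves out the most extreme of all tested genes.

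The promoters of 4 members are shown because they place the direction of change beside short sequence motifs known from promoters of mitochondrial protein genes. Each is the 250 bases before the RefSeq transcript start (build GRCm38.p6), written 5′ to 3′ on the strand of the gene, with motif matches in capitals. Mrps15, with no match, and Mrps22, with an ETS match 11 bases before the start, were both called lower. Mrpl45, also called lower, has 2 NRF1 matches 120 and 38 bases before the start and 1 more in the 50 bases after it, which are not shown, and Mrpl12, which was not called, has 1 NRF1 match 81 bases before the start. Mrps15 is from chr4:126046678-126046927 (plus strand), Mrps22 from chr9:98601680-98601929 (minus strand), Mrpl45 from chr11:97315466-97315715 (plus strand) and Mrpl12 from chr11:120484387-120484636 (plus strand).
Mrps15: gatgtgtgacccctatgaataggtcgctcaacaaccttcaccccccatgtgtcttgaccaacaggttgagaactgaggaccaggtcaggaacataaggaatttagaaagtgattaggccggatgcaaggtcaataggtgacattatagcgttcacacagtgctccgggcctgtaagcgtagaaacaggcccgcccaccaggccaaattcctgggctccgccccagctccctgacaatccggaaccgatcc
Mrps22: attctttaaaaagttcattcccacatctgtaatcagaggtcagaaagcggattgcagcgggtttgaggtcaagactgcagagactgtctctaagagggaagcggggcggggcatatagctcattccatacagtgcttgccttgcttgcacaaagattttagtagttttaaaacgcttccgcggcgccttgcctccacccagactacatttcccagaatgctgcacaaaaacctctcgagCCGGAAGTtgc
Mrpl45: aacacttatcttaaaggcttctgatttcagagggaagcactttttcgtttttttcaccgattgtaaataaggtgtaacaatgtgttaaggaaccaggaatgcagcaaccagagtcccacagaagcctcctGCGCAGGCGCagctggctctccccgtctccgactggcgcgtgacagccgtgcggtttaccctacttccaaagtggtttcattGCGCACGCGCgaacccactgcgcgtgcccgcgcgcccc
Mrpl12: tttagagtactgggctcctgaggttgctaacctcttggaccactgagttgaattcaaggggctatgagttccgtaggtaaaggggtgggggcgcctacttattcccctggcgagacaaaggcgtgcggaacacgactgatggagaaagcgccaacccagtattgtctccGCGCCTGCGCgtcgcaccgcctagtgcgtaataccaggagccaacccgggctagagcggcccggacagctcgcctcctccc

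Among the 77 genes, 68 had a promoter in the RefSeq table (250 bases before to 50 after the start), and motifs were searched on both strands. The NRF1 core consensus was present in 13 of 68 (19.1%), against 10.8% of the 9565 tested genes with a promoter and 4.78% of all 27025 promoters. It was found in 15.4% of the 26 promoters of genes called lower and in 21.4% of the 42 promoters of genes not called. The ETS motif CCGGAAGT was held by 16.2% of the members (11.5% of those lower, 19.0% of the others), against 8.68% of tested genes and 4.00% of all promoters. The YY1 motif ATGGCGGC, which contains a start codon and can therefore fall in coding sequence, was also held by 16.2% (19.2% and 14.3%), against 5.23% and 2.38%. The E-box CACGTG was held by 7.35% of the members, by 4 of 26 called lower and 1 of 42 not called, against 10.4% of tested genes and 7.24% of all promoters. A palindromic core element around CGCG occurred in 1 member (1.47%), against 1.11% of tested genes and 0.496% of all promoters. No motif's letters contain another's, and these shares are descriptions of letters and not of binding.

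The largest fall was that of Mrpl55, which encodes a large-subunit protein of a bacterial family (chr11:59202486-59206134, plus strand, mm10). Mrpl55 was at 29.8, 34.0 and 26.4 TPM in WT and at 8.43, 7.24 and 6.22 TPM in KO. The KO samples were all far below the lowest WT sample, at 24.3% of the WT mean, with a log2 fold change of -1.91 (SE 0.14, limma adjusted p = 0.000126).

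Mrps15, whose bacterial counterpart is among the first proteins to bind the small-subunit rRNA, was at 64.1, 58.8 and 56.2 TPM in WT and 18.9, 23.2 and 24.6 TPM in KO. The groups were well apart, with KO at 37.3% of WT and a log2 fold change of -1.39 (SE 0.12, limma adjusted p = 0.00018). Mrps22, a small-subunit protein particular to mitochondria, was at 17.5, 16.7 and 13.5 TPM in WT and 5.17, 8.02 and 7.58 TPM in KO, a log2 fold change of -1.11 (SE 0.17, limma adjusted p = 0.00148). KO 3 was the lowest sample for both genes, and the groups did not overlap in either. Mrps5, a protein of the mRNA entry region, stood at 14.4, 14.1 and 13.7 TPM in WT and 4.91, 7.36 and 6.38 TPM in KO (log2 fold change -1.07, SE 0.14, limma adjusted p = 0.000823). Here too KO 3 was lowest and the WT samples lay close together. A stretch of 1019 bp of Mrps5 is 98.4% identical to the pseudogene Gm13328, and how reads were divided between the copies is not given in the sources used here. Mrps17, a counterpart of a bacterial protein that binds the rRNA early, was at 16.3, 15.4 and 14.6 TPM in WT and 6.31, 8.16 and 7.13 TPM in KO (log2 fold change -1.01, SE 0.12, limma adjusted p = 0.000586), without overlap.

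Of the 12 largest falls, 7 were in the large subunit. Mrpl11, a protein of the stalk base where translation factors bind, was at 22.5, 19.4 and 20.4 TPM in WT and 6.68, 7.99 and 7.46 TPM in KO. The highest KO sample was far below the lowest WT sample, and the log2 fold change was -1.38 (SE 0.12, limma adjusted p = 0.00017). Mrpl37, a protein particular to mitochondria, was at 28.9, 26.9 and 27.7 TPM in WT and 11.4, 12.1 and 11.0 TPM in KO (log2 fold change -1.20, SE 0.10, limma adjusted p = 0.00017). The samples within each group differed little beside the gap between the groups. Mrpl46, also particular to mitochondria, was at 24.8, 22.0 and 23.4 TPM in WT and 9.13, 9.12 and 10.7 TPM in KO (log2 fold change -1.20, SE 0.11, limma adjusted p = 0.000224), again without overlap.

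Mrpl34, at 96.3 ± 8.8 TPM (SD, n = 3) the most abundant member in WT, encodes one of the smallest proteins of the large subunit. It was at 105.5, 95.4 and 88.1 TPM in WT and 47.6, 44.2 and 42.4 TPM in KO, with each KO sample far below the lowest WT sample. The log2 fold change was -1.09 (SE 0.10, limma adjusted p = 0.000247). Mrpl4, whose bacterial counterpart lines the exit tunnel of the nascent chain, was at 27.2, 30.7 and 29.8 TPM in WT and 12.7, 14.2 and 13.7 TPM in KO (log2 fold change -1.06, SE 0.10, limma adjusted p = 0.000275). Mrpl35 was at 15.2, 13.1 and 12.5 TPM in WT and 6.03, 6.24 and 5.77 TPM in KO (log2 fold change -1.06, SE 0.12, limma adjusted p = 0.00042). Both were lower in each KO sample than in any WT sample.

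**Figure D3:**
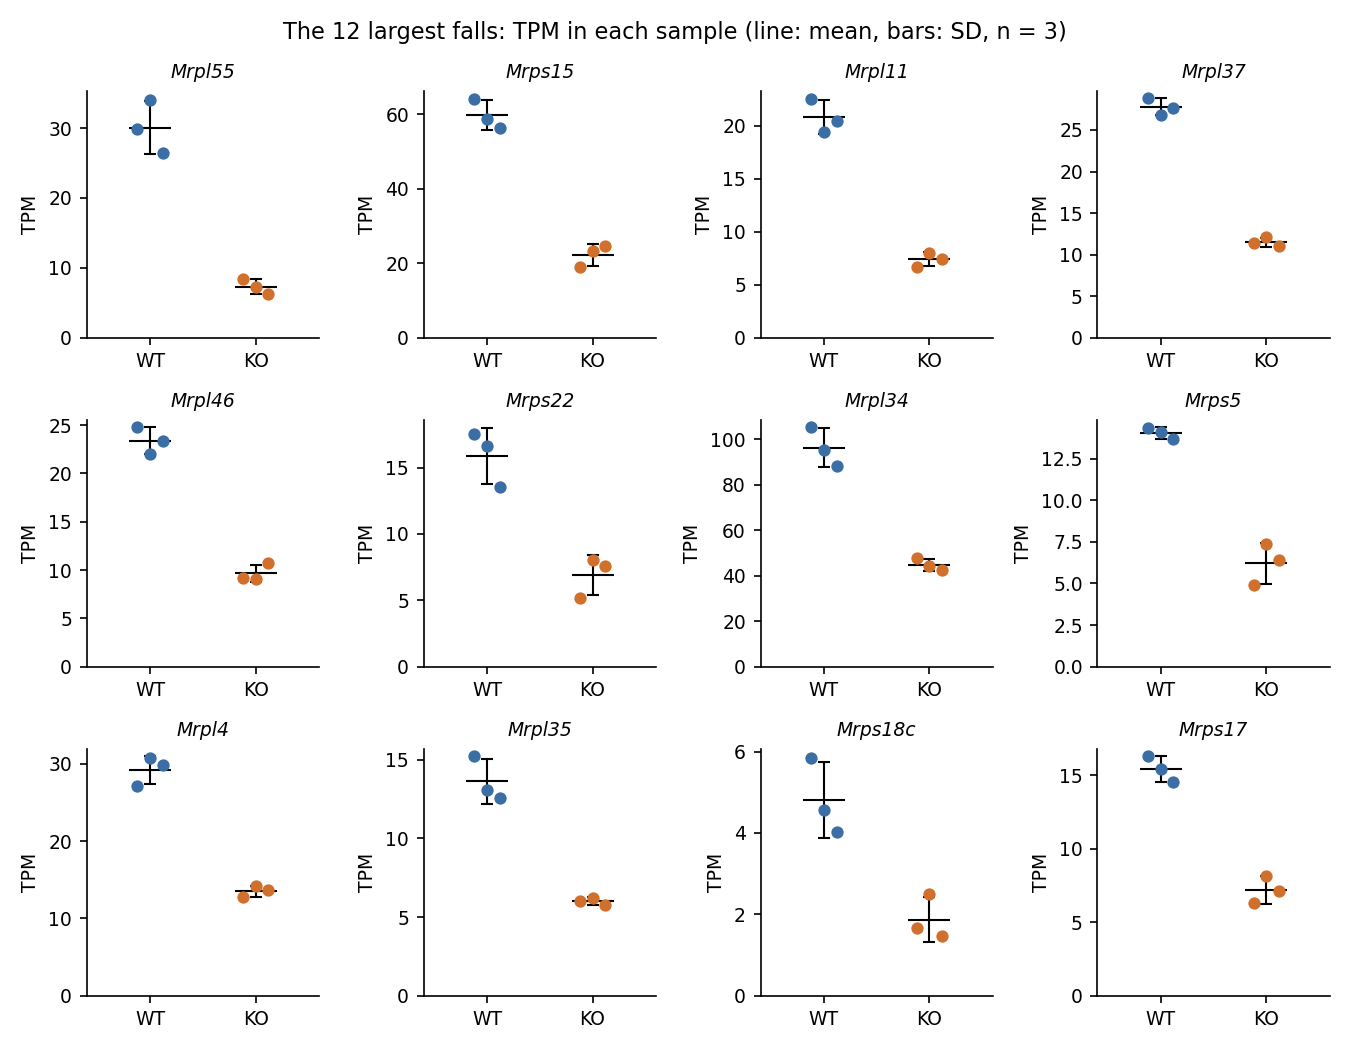
TPM (vertical axes, linear from 0) of the 12 members with the largest falls in each of the 3 WT and 3 KO samples (points), with the mean as a horizontal line and the SD as bars. In each of the 12 genes the 3 KO points lie below the 3 WT points.

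The other 16 genes called lower kept between 47.2% and 63.6% of the WT mean, with log2 fold changes from -0.97 to -0.65 and limma adjusted p from 0.000388 to 0.00337. Of the large subunit they were Mrpl1, Mrpl2, Mrpl3, Mrpl19, Mrpl21, Mrpl22, Mrpl30, Mrpl36, Mrpl42, Mrpl45 and Mrpl47, and of the small subunit Mrps9, Mrps11, Mrps14, Mrps21 and Mrps33. Mrpl45, which tethers the exit site to the inner membrane, was at 37.7, 35.6 and 32.2 TPM in WT and 18.1, 22.0 and 20.4 TPM in KO. Its groups did not overlap, and the log2 fold change was -0.78 (SE 0.11, limma adjusted p = 0.00128). Mrps11 and Mrpl19 were called in none of the fits that left out 1 sample. Mrps33 shares 321 bp at 99.7% identity with the pseudogene Gm5776, which was itself at 51.6 TPM on average, and its value is uncertain to that extent.

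A further 22 genes were lower at a limma adjusted p under 0.05 but were not called. In 13 of these the log2 fold change also passed -0.5, from -0.71 (Mrpl18) to -0.52 (Mrpl39), and the adjusted p alone missed the threshold. In the other 9 it lay between -0.50 and -0.40. Mrpl58, a peptidyl-tRNA hydrolase built into the large subunit, was at 8.52, 8.63 and 7.72 TPM in WT and 4.00, 6.04 and 5.68 TPM in KO (log2 fold change -0.59, limma adjusted p = 0.0187). Mrps12, a protein of the decoding site, was at 46.3, 53.2 and 48.8 TPM in WT and 36.4, 40.6 and 32.3 TPM in KO (log2 fold change -0.43, limma adjusted p = 0.0194). Neither gene's groups overlapped.

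The fall was uneven within structural groups. The 3 stalk proteins, which bring translation factors to the ribosome, ranged from Mrpl11 at -1.38 through Mrpl10 to Mrpl12. Mrpl10 was at 53.6, 56.7 and 55.7 TPM in WT and 37.0, 44.4 and 39.7 TPM in KO, lower without overlap (log2 fold change -0.45, limma adjusted p = 0.0103) but not called. Mrpl12 was at 33.2, 34.3 and 34.7 TPM in WT and 29.9, 37.2 and 30.0 TPM in KO, with KO 7 above every WT sample (log2 fold change -0.08, SE 0.11, limma adjusted p = 0.635). With median-of-ratios scaling, which aligns the samples on the median gene, Mrpl12 turned to 0.02. Of the paralogs of one bacterial protein, Mrps18c was at 5.85, 4.56 and 4.02 TPM in WT and 1.66, 2.49 and 1.46 TPM in KO and was called lower (log2 fold change -1.02, SE 0.19, limma adjusted p = 0.00389), on few reads and in 1 of the 6 fits that left out a sample. It was not called without a variance trend (adjusted p = 0.00501) or with voom scaled by median of ratios (adjusted p = 0.00576). Mrps18a was at 14.8, 14.8 and 14.1 TPM in WT and 8.05, 10.8 and 10.2 TPM in KO (log2 fold change -0.55, limma adjusted p = 0.0111). Both were without overlap. Mrps18b was at 30.5, 28.1 and 24.7 TPM in WT and 26.1, 32.8 and 30.9 TPM in KO, with the groups overlapping (log2 fold change 0.10, limma adjusted p = 0.569), and its value is uncertain because 417 bp are 99.8% identical to the pseudogene Gm13552, at 44.6 TPM. With median-of-ratios scaling it was 0.20 (limma adjusted p = 0.0211), and 0.22 with voom so scaled (adjusted p = 0.0329).

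The 6 most abundant members by mean were Mrpl52, Mrpl54, Mrpl34, Mrps21, Mrpl20 and Mrpl28. Mrpl52 was at 79.2, 87.6 and 71.9 TPM in WT and 76.6, 88.4 and 84.2 TPM in KO, and Mrpl54 at 71.3, 82.8 and 76.3 TPM in WT and 65.7, 86.8 and 72.2 TPM in KO. Both genes overlapped between groups, with log2 fold changes of 0.06 (limma adjusted p = 0.697) and -0.04 (limma adjusted p = 0.824). With median-of-ratios scaling Mrpl52 was at 0.17 (limma adjusted p = 0.0491) and Mrpl54 turned to 0.06. Mrps21, called lower, was at 85.2, 77.8 and 77.1 TPM in WT and 50.0, 48.7 and 48.2 TPM in KO, whereas Mrpl20 (log2 fold change -0.54, limma adjusted p = 0.00637) and Mrpl28 (log2 fold change -0.49, limma adjusted p = 0.0116) were lower without being called. The least abundant were Mrpl33 (2.93 TPM in WT and 2.35 TPM in KO), Mrps18c and Mrps35 (4.80 and 2.70 TPM), and the lowest count behind any member in any sample was 13 reads.

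At the other end, 25 genes did not pass an adjusted p of 0.05 in either direction, and 17 of them overlapped between groups. Mrps6 and Mrpl17, named after their values were seen, were the 2 genes higher at that threshold. Mrps6, whose bacterial counterpart pairs with that of the Mrps18 proteins, was at 26.2, 22.8 and 20.3 TPM in WT and 33.5, 29.8 and 35.1 TPM in KO (log2 fold change 0.49, SE 0.12, limma adjusted p = 0.0151). Each KO sample was above each WT sample, and 159 bp of its exons (10.4%) are shared with Slc5a3 on the same strand. Mrpl17, a large-subunit protein of a bacterial family, was at 19.6, 20.2 and 19.5 TPM in WT and 23.1, 28.2 and 24.7 TPM in KO (log2 fold change 0.34, SE 0.11, limma adjusted p = 0.0421), also without overlap.

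By subunit, 10 of 26 small-subunit genes (median log2 fold change -0.49) and 18 of 50 large-subunit genes (median -0.55) were called lower, beside 9.03% and -0.07 for all tested genes. Grouped by family, 8 of 16 small-subunit and 14 of 30 large-subunit genes with a bacterial counterpart were called lower, with medians of -0.59 and -0.66. Mrps18b (small subunit) and Mrps18a (large subunit), paralogs of a bacterial protein, were placed with the genes counted as particular to mitochondria. Of that group, 2 of 10 in the small subunit and 4 of 20 in the large subunit were called lower, with medians of -0.48 and -0.46. With median-of-ratios scaling these 2 counts were 4 and 4, beside 8 and 17 in the bacterial families (9.74% of all tested genes). Voom on the recovered reads gave 4 and 9, beside 8 and 19 (14.5%). Voom scaled by median of ratios gave 4 and 5, beside 7 and 18 (12.2%). In the large-subunit bacterial families KO lay below WT in 28 of 30 genes (93.3%), and in the mitochondrial ones in 12 of 20 (60.0%), against 29.9% of all tested genes. In the small subunit the shares were closer, at 11 of 16 bacterial (68.8%) and 6 of 10 mitochondrial genes (60.0%). The difference between families was not tested.

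Summed over the 77 genes, WT samples held 2330, 2269 and 2106 TPM and KO samples 1455, 1696 and 1574 TPM, with KO at 70.5% of WT. The groups did not overlap, and KO 3 was lowest. Scaled by median of ratios, the sums were 2140, 2128 and 2193 in WT and 1668, 1623 and 1600 in KO, at 75.7%, so the order of samples within each group changed with the scaling while the gap between groups remained. The small subunit kept 73.3% and the large subunit 69.1% of the WT sum in TPM. The 49 genes not called kept 82.5%, from 1312 to 1447 TPM in WT to 1054 to 1247 TPM in KO.

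**Figure D4:**
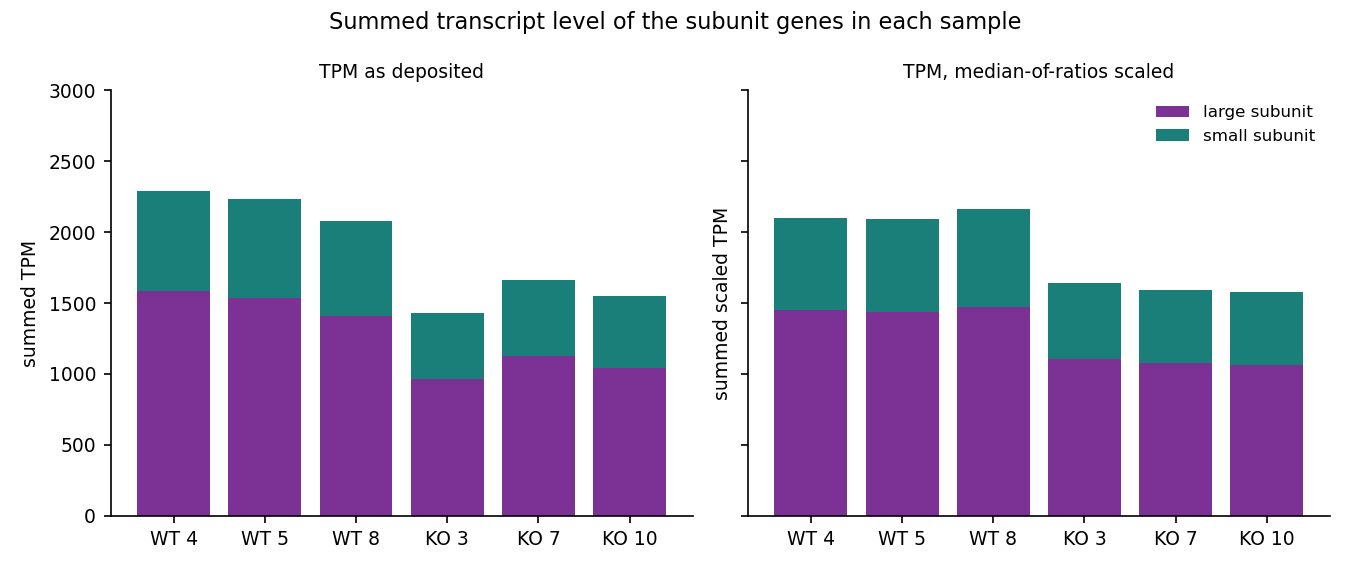
Summed level of the 50 large-subunit and 26 small-subunit genes (stacked bars from 0) in each of the 6 samples, as deposited TPM (left) and after median-of-ratios scaling (right). On both scales the 3 KO bars are shorter than the 3 WT bars.

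Rank correlations of the change with level, length and base composition were weak within the set. Across the 77 genes, which share the 6 libraries, Spearman's rho of the log2 fold change was 0.05 with the WT mean TPM, -0.05 with exon length and 0.13 with transcript GC content. Called lower were 38.5%, 40.0% and 30.8% of the members with low, middle and high WT levels (26, 25 and 26 genes), where 16.9%, 12.6% and 7.83% of protein-coding genes of the same ranges were. The genes lie on 17 chromosomes.

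Many members start close to a neighbour on the opposite strand. A protein-coding gene on the opposite strand started within 1000 bp in 33 of 77 members (42.9%), against 16.4% of 11888 tested protein-coding genes, by GENCODE M21 positions. The share was 35.7% in the members called lower and 46.9% in the others. Of the 10 neighbours of members called lower, 7 were called lower as well: Zfp661 beside Mrps5, Helq beside Mrps18c, Ighmbp2 beside Mrpl21, Ndufs6 beside Mrpl36, Mitd1 beside Mrpl30, and Mrpl46 and Mrps11, which are each other's neighbour and count in both directions. Of the 20 tested neighbours of members not called, 2 were called lower, Eme1 beside Mrpl27 and Sars2 beside Mrps12. Over all tested protein-coding genes with a tested neighbour of this kind, the neighbour was called lower for 31.6% of 244 genes called lower and for 11.7% of the 1427 others. Ndufs6, a subunit of respiratory complex I, had a log2 fold change of -0.99 (limma adjusted p = 0.00098) beside -0.90 for Mrpl36, and Mitd1 one of -0.98 (limma adjusted p = 0.000714) beside -0.76 for Mrpl30. Eme1 had one of -1.50 (limma adjusted p = 0.000379) beside -0.26 for Mrpl27, so the members of a pair did not always move alike. Exons of some pairs overlap (173 bp between Mrpl46 and Mrps11, 30 bp between Mrpl36 and Ndufs6), and since the kit does not mark strand, reads from the shared bases cannot be told apart between the 2 genes.

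The genes that build and run the ribosome were taken from lists written by known function. Of 26 genes of assembly and rRNA modification, 5 were called lower (19.2%, beside 9.03% of all tested genes) and 15 (57.7%, beside 20.7%) were lower at an adjusted p under 0.05, with a median log2 fold change of -0.50. Eral1, a chaperone of the small-subunit rRNA, was at 18.3, 19.2 and 15.9 TPM in WT and 4.43, 6.83 and 6.32 TPM in KO (log2 fold change -1.47, SE 0.16, limma adjusted p = 0.000356). Its groups were far apart. Fastkd2, an RNA-binding protein of large-subunit assembly, had a log2 fold change of -1.32 (SE 0.15, limma adjusted p = 0.000382), Mtg1, an assembly GTPase, of -1.12 (SE 0.16, limma adjusted p = 0.00109), Ddx28, a helicase, of -0.96 (SE 0.15, limma adjusted p = 0.00173) and Mrm3, a methyltransferase of the large rRNA, of -0.68 (SE 0.12, limma adjusted p = 0.00335). Mrm3 was called in none of the 6 fits that left out 1 sample, Ddx28 in 3 and Mtg1 in 5. The count of 5 was 2 without KO 3 (where 4.39% of all genes tested were called lower), 3 without WT 5 (4.16%) and 3 without KO 10 (5.31%). It was 10 with voom on the recovered reads (against 14.5% of all tested genes) and 8 with voom scaled by median of ratios (against 12.2%).

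Of 16 tested translation factors and partners, 7 were called lower (43.8%, beside 9.03% of all tested genes) and 10 (62.5%, beside 20.7%) were lower at an adjusted p under 0.05, with a median of -0.63. Mtrf1, of the release factor family, was at 5.78, 4.02 and 5.20 TPM in WT and 0.855, 1.41 and 1.49 TPM in KO (log2 fold change -1.42, SE 0.19, limma adjusted p = 0.000787). Gfm1, the elongation factor that moves the ribosome along the mRNA, was at 47.6, 42.7 and 35.6 TPM in WT and 17.1, 20.9 and 20.6 TPM in KO (log2 fold change -1.06, SE 0.13, limma adjusted p = 0.000648). In both genes each KO sample was below each WT sample. The log2 fold change was -1.05 for Guf1, an elongation factor, -0.95 for Taco1, a translational activator of a cytochrome oxidase subunit, -0.77 for Letm1, an inner-membrane protein, and -0.75 for Mtif2, the initiation factor that places the first tRNA, with limma adjusted p from 0.00129 to 0.00264. Letm1 and Mtif2 were each called in 1 of the 6 fits that left out 1 sample, and Guf1 and Taco1 in 4. The remaining gene called, Gfm2, a recycling factor, was called in 0 of them. The count of 7 was 2 without WT 5 (where 4.16% of all genes tested were called lower), 3 without WT 8 (5.71%) or KO 3 (4.39%), and 4 without WT 4 (5.60%) or KO 10 (5.31%).

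The 5 ribosomal proteins known by other names (Dap3, Ptcd3, Chchd1, Aurkaip1 and Gadd45gip1) gave 0 calls in either direction by limma and by voom on the recovered reads, with 1 lower and 0 higher at an unadjusted p under 0.05 and a median of -0.08. Of all tested genes, 27.2% were lower and 12.2% higher at an unadjusted p under 0.05, beside the 9.03% and 1.64% called. Aurkaip1, at 48.9 ± 3.5 TPM in WT and 38.4 ± 2.2 TPM in KO (SD, n = 3), was lower at a limma adjusted p of 0.0338. Of the 15 mitochondrially encoded rRNAs and mRNAs, limma called 0, and voom on the recovered reads called 1 higher (6.67%, beside 2.93% of all tested genes). Their median was -0.13. At an unadjusted p under 0.05 by limma, 0 were lower and 2 higher (13.3%, beside 12.2% of all tested genes). Those 2 were the small and large rRNA, which were also higher at an adjusted p under 0.05. mt-Rnr1 was at 276, 237 and 208 TPM in WT and 318, 348 and 323 TPM in KO (log2 fold change 0.46, SE 0.12, limma adjusted p = 0.0166), and mt-Rnr2 at 689, 576 and 512 TPM in WT and 869, 905 and 855 TPM in KO (log2 fold change 0.58, SE 0.12, limma adjusted p = 0.00649). In both rRNAs each KO sample was above each WT sample. With median-of-ratios scaling both were called higher (13.3% of the list, beside 3.20% of all tested genes). Both rRNAs were far below the mRNA mt-Co1, at 14640 TPM on average in WT. How the library preparation treated rRNA is not given in the sources used here. Whether these 2 values follow the rRNA level of the cells was not tested. Of 12 tested transcription factors of nuclear mitochondrial genes and of mitochondrial DNA, 1 was called lower (8.33%, beside 9.03% of all tested genes), Polrmt, the mitochondrial RNA polymerase, at 16.7, 18.9 and 17.1 TPM in WT and 8.01, 9.32 and 8.61 TPM in KO (log2 fold change -0.94, SE 0.11, limma adjusted p = 0.000515). At an adjusted p under 0.05 by limma, 4 of the 12 were lower (33.3%, beside 20.7% of all tested genes), each without overlap. Beside Polrmt these were Tfam (log2 fold change -0.63), Tfb2m (-0.61) and Tefm (-0.52). At that threshold 1 was higher, Esrra (8.33%, beside 7.14%). Voom on the recovered reads called 3 of the 12 lower (against 14.5% of all tested genes) and 0 higher (against 2.93%). With median-of-ratios scaling 3 of the 12 were called lower (Polrmt, Tfam and Tfb2m) and 1 higher (Esrra), beside 9.74% and 3.20% of all tested genes.

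**Figure D5:**
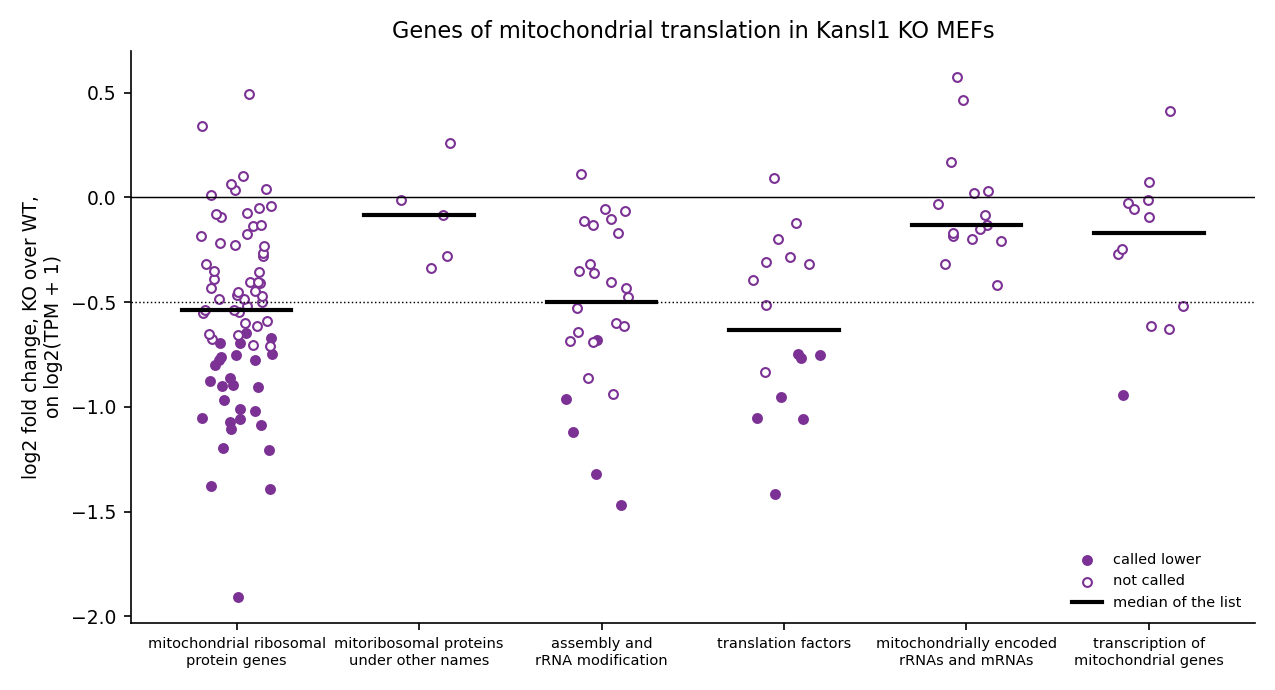
Log2 fold change of KO over WT (vertical axis, on log2(TPM + 1)) for each tested gene of the 77 members and of 5 lists of mitochondrial translation, with filled points for genes called lower, open points for the others and a bar at the median. The medians run from -0.63 for translation factors to -0.08 for ribosomal proteins under other names, and no gene of the mitochondrially encoded list is filled.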

How the data were processed

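RNA of primary MEFs was sequenced in 3 WT and 3 KO samples, grouped by their titles. The kit named in the study's methods does not mark strand. The authors aligned reads to the mouse genome with STAR and deposited 1 table of TPM values for 26898 genes, while the submitters' processing notes name Bowtie 0.12.2 and mm10. Counting program, annotation release and handling of multiply mapped reads were not given in the sources used here. A log2 fold change and an adjusted p-value per gene, also deposited by the authors, were not used. Each TPM value was multiplied by exon length (GENCODE M21, which held all 26898 identifiers) and divided by a step particular to each sample (103 to 137). This gave whole reads in 100.0% of cases in each sample, for values up to 1000 reads and within 0.05 of a whole number.

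limma 3.58.1 in R 4.3.3 was fitted on log2(TPM + 1) with a variance trend and no covariate to the 14799 genes with a group mean of at least 1 TPM, and p-values were adjusted by Benjamini-Hochberg over all of them. Fold changes on this scale understate those of low genes, and percentages of WT are ratios of mean TPM. The script was tested on simulated data. DESeq2, named by the study, was not run.

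Members and lists were chosen with earlier results of these data known. Named are Kansl1, the 12 largest falls among called members, the 6 most and 3 least abundant members, the Mrps18 paralogs, the stalk proteins, Mrpl45, Mrps12 and Mrpl58, and up to 6 called genes of each list. Pseudocount, filter, variance trend, scaling, the 2 most abundant RNAs, voom on recovered reads, thresholds and each left-out sample were varied. Near copies were found with BLAST at 98% identity over at least 100 bp. Promoters came from RefSeq.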

Additional observations from a re-analysis of the deposited data

How the results depend on the processing

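No paired analysis was possible because no number in the labels occurs in both groups. The number of members called lower was 28, and it lay between 17 and 23 when 1 sample was left out. It rose to 32 when genes under a mean of 10 TPM were left out (where 12.2% of all genes tested were called lower), to 33 with median-of-ratios scaling (9.74%), to 39 without the 2 most abundant RNAs (11.2%), to 40 with voom (14.5%) and to 34 with voom scaled by median of ratios (12.2%). It was 13 when all 26898 genes were tested with no filter on low values, where 1.06% of all genes were called lower, and 50 at an adjusted p under 0.05 with no minimum change. Among members called lower, all 28 were also called with a pseudocount of 0.1, with median-of-ratios scaling, without the 2 most abundant RNAs and with voom on recovered reads, 27 with voom scaled by median of ratios and 24 without a variance trend. A mean of at least 10 TPM left 22 of the 28 to be tested, and all 22 were called. The number called higher was 0, but 1 (Mrps6) under voom scaled by median of ratios, and 2 at an adjusted p under 0.05. The median of -0.54 lay between -0.60 and -0.44 in the alternatives run. Median-of-ratios scaling moved the median of all tested genes from -0.07 to 0.02, and the share of lower among all calls from 84.7% to 75.3%, with lower calls going from 1337 to 1441 and higher calls from 242 to 473. Mrpl54 turned from -0.04 to 0.061 with median-of-ratios scaling and to 0.066 with voom scaled the same way, and it ran from -0.15 without KO 7 to 0.046 without KO 3. Mrpl12 turned from -0.08 to 0.022 and 0.023 under those 2 alternatives, where Mrpl52 was at 0.17 in both, and Mrpl52 ran from -0.0064 without WT 8 to 0.13 without WT 5. Of the genes of other lists, Mtg1, Ddx28, Mrm3, Mtrf1, Gfm1, Guf1, Taco1, Letm1 and Mtif2 were not called with no filter on low values, Mtif2 was not called without a variance trend, and Mrm3 was not called under either alternative with median-of-ratios scaling. When 1 sample was left out, the count was between 2 and 4 for assembly genes (5 with all samples) and between 2 and 6 for translation factors (7 with all samples). Where calls were lost or gained, the cause was not tested, except that fits without a sample have fewer samples and the fit with no filter tests more genes. With 3 samples a group, changes near the threshold cannot be resolved: 24 members passed an adjusted p of 0.05 and were not called, 22 of them lower and 2 higher.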
